A study of Mus musculus with 8 samples.

Results

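The genes described here encode the nuclear-coded subunits of the mitochondrial respiratory chain and of ATP synthase. They were chosen by symbol alone, as every gene of the table named Nduf (a, b, c, s or v with a number), Sdha to Sdhd, Uqcr, Cox4 to Cox8 or Atp5. The rule found 84 of 23293 mouse genes: 37 for complex I, 4 for complex II, 8 for complex III, 18 for complex IV and 17 for complex V. Of these, 77 had a mean of at least 1 FPKM (fragments per length of transcript, relative to the mapped fragments of a library) over the libraries and were tested, among 10854 genes tested in all. Atp5s and Atp5sl match by name but are not ATP synthase subunits, and Ndufa4 is counted in complex I by its name although its protein is also known as a subunit of complex IV.

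The study sequenced RNA of bone marrow cells selected on magnetic beads for c-Kit, a receptor of blood stem and progenitor cells, from individual mice, in 8 libraries, 2 for each of 4 genotypes. Its question is how the amount of cohesin, a ring that links sister chromatids, affects healthy and leukaemic blood formation. Controls carried 1 floxed Smc3 allele (fl/+) and no Mx1-cre. The Smc3 del/+ mice carried Mx1-cre and 1 floxed allele of Smc3, which encodes a cohesin subunit. The Flt3-ITD mice carried Mx1-cre and the Flt3-ITD allele, whose duplication keeps the Flt3 receptor kinase active. The combined group carried Mx1-cre, Flt3-ITD and the Smc3 deletion, given as fl/del in the genotype label and as het in the sample title. All mice, controls included, received PIpC, which induces Mx1-cre, 4 weeks before the marrow was taken. The Mx1 promoter is active in many cell types besides blood cells, and the labels do not give the age of the mice.

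The respiratory chain passes electrons from NADH through complex I, or from succinate through complex II, to ubiquinone, then through complex III and cytochrome c to complex IV, which reduces oxygen. The proton gradient built by complexes I, III and IV drives ATP synthase, complex V. Most subunits are encoded in the nucleus and imported into mitochondria, where they join a few subunits encoded by mitochondrial DNA. In bone marrow, respiration is known to be low in resting stem cells and to rise as progenitors are activated and differentiate, above all along the erythroid line.

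Some facts of the libraries bear on every result. Combined replicate 2 stood apart: it had 11076 genes listed at 0, against 8878 to 9907 in the other 7 libraries, and the members' median difference from combined replicate 1 was 0.46 on the log2(FPKM + 1) scale. In the other groups that difference between replicates was -0.11 to 0.09, so counts and medians of members in comparisons that include the combined group are given with and without this library. The values are not read counts, so their depth is unknown; steps of low values put relative depth at an uncertain 0.717 to 1.01 of control replicate 1. Smc3 itself was at 119 and 112 FPKM in the control pair, 135 and 133 in the pair labelled Smc3 del/+, 94.7 and 89.9 in the Flt3-ITD pair, and 103 and 136 in the combined pair, so whole-gene FPKM did not show the deletion and directions refer to libraries as labelled. Xist, expressed from the inactive X chromosome of females, was at 500 to 657 FPKM in controls and the combined group and at 0.140 to 0.936 in Smc3 del/+ and Flt3-ITD. Sex therefore cannot be told apart from genotype in Flt3-ITD or Smc3 del/+ against control, nor in the combined group against Flt3-ITD, and only the controls lacked Mx1-cre. The interaction, which asks whether the effect of Flt3-ITD differs with the Smc3 deletion, sets the groups of high Xist against those of low Xist. It cannot be told apart from sex either. The effect of Flt3-ITD averaged over both Smc3 states is balanced for the Xist pattern.

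The respiratory chain genes were among the more abundant transcripts of these cells. Per transcript length, the 77 tested members had a median level of 61.2 FPKM, against 12.9 for all genes tested, and 73 of them were above 10 FPKM. The highest mean of all was that of Uqcrb, a small complex III subunit, at 570 FPKM. In complex I the highest means were 385 for Ndufa4 and 165 for Ndufs6, and Ndufa11 was lowest among tested members at 3.53. Complex II genes lay closest together, from 38.3 for Sdhb to 72.2 for Sdha, the flavoprotein that oxidizes succinate. In complex III, Uqcrh followed Uqcrb at 171, and Uqcrfs1, the Rieske iron-sulphur protein, was lowest at 27.0. In complex IV, Cox6c and Cox7c led at 382 and 196, and in complex V, Atp5b and Atp5h at 270 and 233. Of the 7 members that were not tested, Ndufa4l2, Cox7b2, Cox8b and Cox8c were listed at 0 in every library.

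Members had lower levels in Flt3-ITD libraries, which keep both Smc3 alleles, than in controls. Of 77, 69 had a lower mean. The members' median log2 fold change was -0.32, where that of all genes tested was -0.01. By limma, with Benjamini-Hochberg adjustment over all genes, 12 fell and none rose, 15.6% of those tested, while of all genes tested 9.5% fell and 8.51% rose. Both Flt3-ITD libraries were below both controls in 52 members and above both in 3, against 35.2% and 34.3% of all genes. By complex, 5 of 36 fell in complex I, 0 of 4 in II, 3 of 8 in III, 1 of 12 in IV and 3 of 17 in V, with medians of -0.32, -0.26, -0.37, -0.34 and -0.32. In whole-fraction RNA, fewer cells of a type and less RNA per cell cannot be told apart, here and below.

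**Figure D1:**
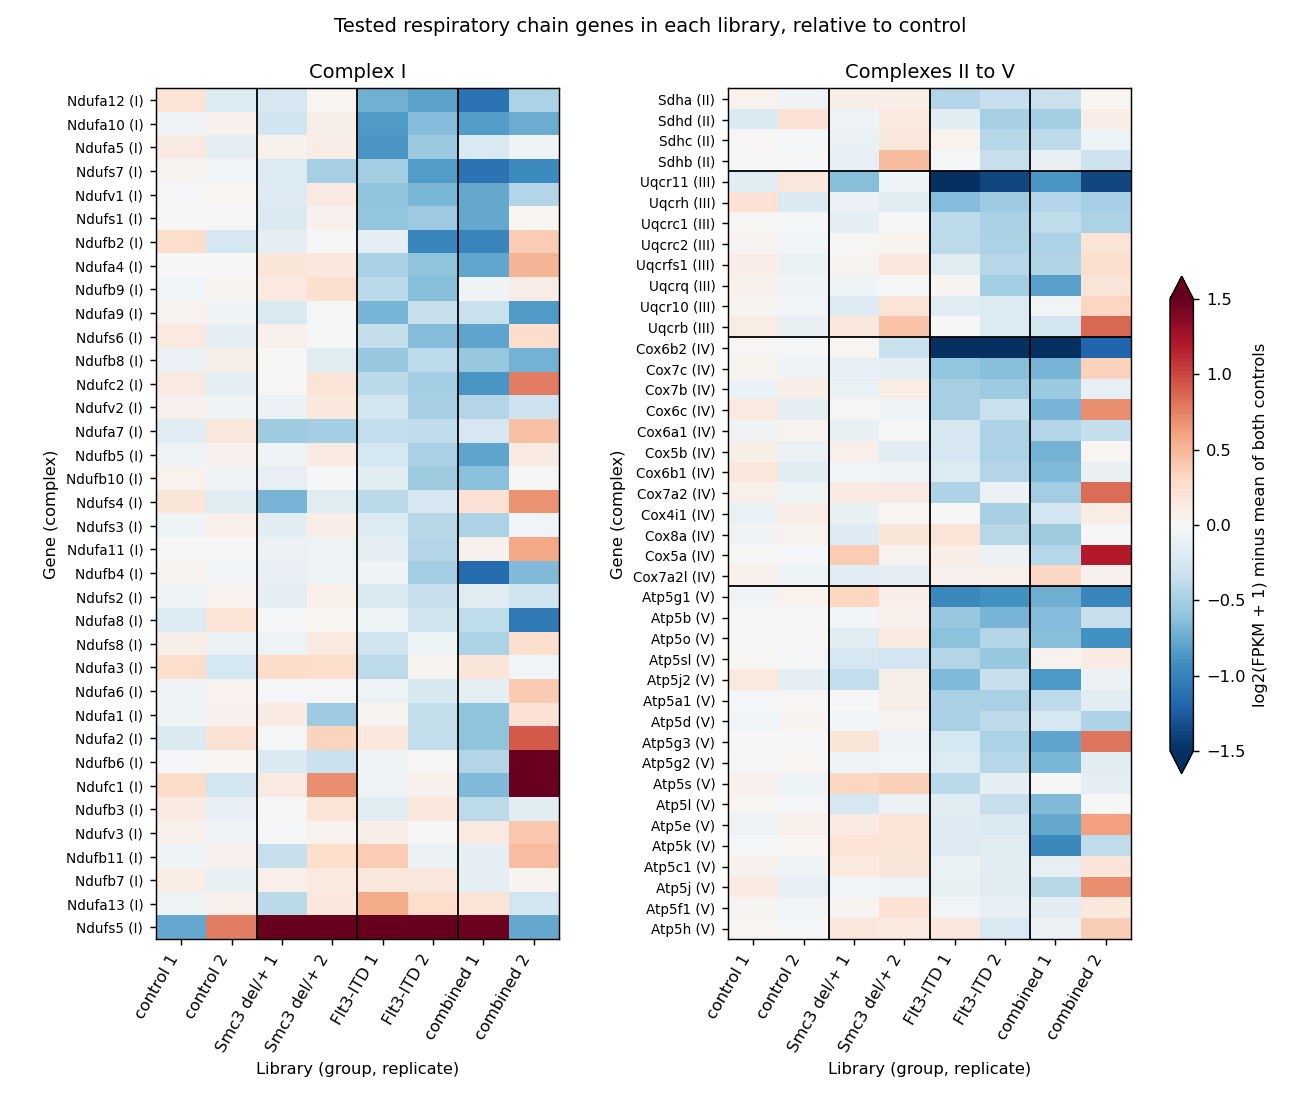
Levels of the 77 tested members in each library, as log2(FPKM + 1) minus the mean of both controls (color, cut at 1.5 either way); rows are genes by complex, columns are libraries. Most rows turn blue in both Flt3-ITD libraries and in combined replicate 1, while many turn red in combined replicate 2.

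For 1 gene and 2 libraries a side, the smallest p of an exact permutation test is 0.333, so each of these 12 calls depends on the spread shared across genes. No member passed when control replicate 1, control replicate 2 or Flt3-ITD replicate 1 was left out, 3 passed without Flt3-ITD replicate 2 or without either Smc3 del/+ library, and 32 passed as lower, with Ndufs5 as higher, without either combined library, where 19.9% of all genes fell and 19.1% rose. Fewer of all genes fell too when a control, Flt3-ITD or Smc3 del/+ library was left out. The members' median was -0.31, -0.34, -0.42 and -0.25 without control replicate 1, control replicate 2, Flt3-ITD replicate 1 and Flt3-ITD replicate 2. That of all genes stayed at -0.01. With no filter on low values, 4 of the 12, Cox6b2, Ndufs7, Ndufv1 and Uqcrh, no longer passed. Atp5d and Cox6a2, which the filter leaves out, then passed as lower, and 6.01% of all genes fell and 4.1% rose.

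In complex I, the calls fell on both arms of the enzyme. Ndufv1, the subunit that binds NADH and flavin, was at 27.3 and 28.3 FPKM in the control pair, 24.3 and 30.6 in the Smc3 del/+ pair, 17.9 and 16.9 in the Flt3-ITD pair, and 15.9 and 20.3 in the combined pair. All 4 Flt3-ITD carriers were below all 4 other libraries, and the log2 fold change of Flt3-ITD against control was -0.65 ± 0.172 (SE, limma adjusted p = 0.0393). Ndufs7, which carries the iron-sulphur cluster next to ubiquinone, was at 19.8 and 18.7 in the control pair, 16.5 and 13.3 in the Smc3 del/+ pair, 13.1 and 10.4 in the Flt3-ITD pair, and 8.4 and 9.46 in the combined pair. The carriers were again lowest, with Smc3 del/+ replicate 2 close above Flt3-ITD replicate 1 (log2 fold change -0.68 ± 0.178, adjusted p = 0.0375). Ndufa10, an accessory subunit of the membrane arm, was at 48.6 and 53.4, 41.3 and 54.2, 27.8 and 32.2, and 28 and 29.9 FPKM in the same order of groups. Its groups with and without Flt3-ITD did not overlap (-0.75 ± 0.165, adjusted p = 0.0221).

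Ndufa5 and Ndufb9, accessory subunits of the peripheral and the membrane arm, fell in this comparison too, with combined libraries near the controls. Ndufa5 was at 32.6 and 26.8 FPKM in the control pair, 30.9 and 32 in the Smc3 del/+ pair and 15.6 and 19.7 in the Flt3-ITD pair, but at 25.1 and 28.4 in the combined pair, within reach of the controls. Ndufb9 was at 40.7 and 43.1, 46.3 and 49.5, 31.4 and 26.6, and 40.4 and 45.3 in the same order. Their log2 fold changes in Flt3-ITD against control were -0.72 ± 0.167 and -0.52 ± 0.138 (SE, limma adjusted p = 0.0261 and 0.0387). In the combined pair against the Flt3-ITD pair they were 0.57 and 0.55 and did not pass (adjusted p = 0.301 and 0.229). Whether the effect of Flt3-ITD differed with the Smc3 deletion was tested by the interaction, which cannot be told apart from the Xist pattern. Its limma adjusted p was 0.584 for Ndufa5 and 0.615 for Ndufb9, so a difference between the groups with Flt3-ITD was not shown.

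No complex II gene passed, although all 4 means were lower in Flt3-ITD. Sdha was at 80.1 and 74.8 FPKM in the control pair, 82.2 and 83.3 in the Smc3 del/+ pair, 56.9 and 60.6 in the Flt3-ITD pair, and 61.3 and 78.9 in the combined pair. The Flt3-ITD libraries were below all others, and combined replicate 2 lay among the controls (log2 fold change -0.39 ± 0.147, limma adjusted p = 0.105).

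Complex III held Uqcr11, the second largest fall among members. This small subunit was at 47.9 and 61.3 FPKM in the control pair, 34.6 and 51.9 in the Smc3 del/+ pair, 17 and 20.4 in the Flt3-ITD pair, and 29.2 and 20.4 in the combined pair. All carriers of Flt3-ITD were below all other libraries, and the log2 fold change was -1.49 ± 0.252 (SE, limma adjusted p = 0.00916). Uqcrc1, a core protein, was at 72 and 70.7, 64.6 and 71.8, 54.0 and 50.8, and 54.5 and 51.0 in the same order, with tight replicates and no overlap (-0.44 ± 0.121, adjusted p = 0.0443). Uqcrh, the hinge protein near cytochrome c, was at 240 and 177, 194 and 183, 131 and 142, and 151 and 146 (-0.59 ± 0.162, adjusted p = 0.0431). The controls of Uqcrh differed from each other by more than the carriers did.

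The largest fall was in complex IV. Cox6b2, known as the testis isoform of the subunit that faces cytochrome c, was at 41.7 and 40.4 FPKM in the control pair, 41.7 and 32.4 in the Smc3 del/+ pair, 13.5 and 9.89 in the Flt3-ITD pair, and 5.49 and 17.4 in the combined pair. The carriers were all below the others, with a wide gap between the combined replicates (log2 fold change -1.74 ± 0.428 SE, limma adjusted p = 0.0311). No other complex IV gene passed in this comparison, and 10 of 12 means were lower.

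**Figure D2:**
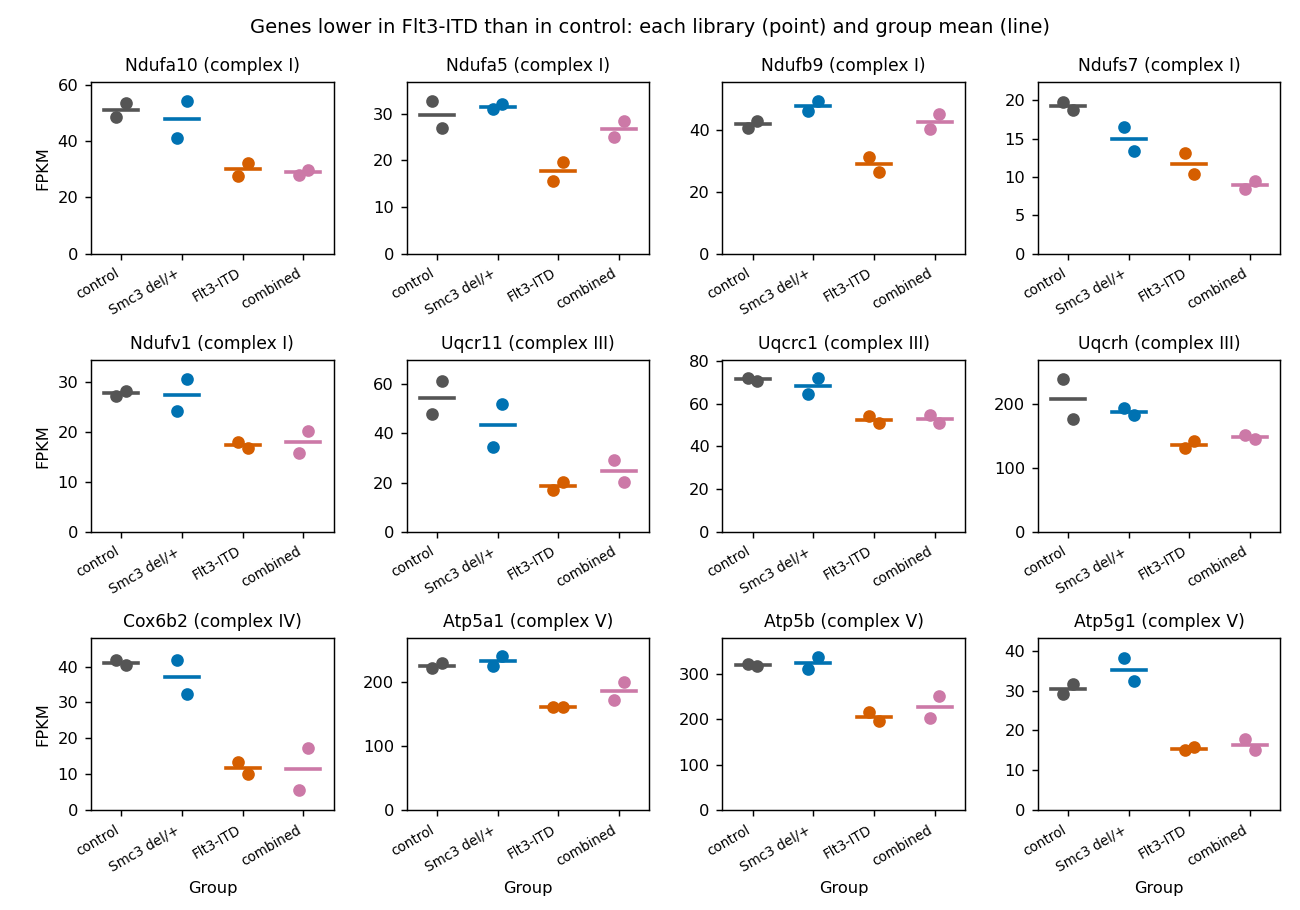
FPKM of the 12 members that fell in Flt3-ITD against control; each point is a library, each line a group mean, and each vertical axis starts at 0. Both Flt3-ITD points lie below both control points in every panel; the combined points of Ndufa5 and Ndufb9 lie near the controls.

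In complex V the catalytic head and the proton-carrying ring both held genes that fell. Atp5b, the catalytic beta subunit, was at 322 and 318 FPKM in the control pair, 311 and 338 in the Smc3 del/+ pair, 216 and 197 in the Flt3-ITD pair, and 204 and 251 in the combined pair (log2 fold change -0.63 ± 0.146 SE, limma adjusted p = 0.0261). Atp5a1, its alpha partner, was at 222 and 229, 226 and 240, 161 and 161, and 172 and 201 (-0.48 ± 0.129, adjusted p = 0.0396). For both genes the 4 carriers lay below the 4 other libraries. Atp5g1 encodes subunit c of the ring, as do Atp5g2 and Atp5g3, which give the same mature protein. Atp5g1 was at 29.1 and 31.7, 38.1 and 32.5, 15.1 and 15.8, and 17.9 and 15, with the smallest p of all members (-0.93 ± 0.152, adjusted p = 0.00817). Neither Atp5g2 nor Atp5g3 passed.

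Averaged over both Smc3 states, 20 members fell with Flt3-ITD and none rose, 26.0% of those tested, where 12.8% of all genes fell and 10.9% rose. The median was -0.29, against -0.01 for all genes. By complex these were 9 of 36, 0 of 4, 3 of 8, 3 of 12 and 5 of 17. The largest values were -1.77 ± 0.285 (SE) for Cox6b2, -1.13 ± 0.209 for Uqcr11 and -0.996 ± 0.106 for Atp5g1 (limma adjusted p = 0.0046, 0.00749 and 0.00139). Besides genes given above, the 5 complex I genes of smallest p included Ndufb8, of the membrane arm, and Ndufa12, of the peripheral arm. Ndufb8 was at 74.4 and 84.6 FPKM in the control pair, 80.1 and 69.6 in the Smc3 del/+ pair, 53.3 and 60.01 in the Flt3-ITD pair, and 53.2 and 48.0 in the combined pair. Its carriers were below all other libraries (-0.52 ± 0.0983, adjusted p = 0.00837).

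In complexes IV and V, this averaged effect added Cox6a1 and Cox7b, and Atp5o and Atp5d. Cox6a1, the common isoform of a regulatory subunit, was at 210 and 227 FPKM in the control pair, 202 and 218 in the Smc3 del/+ pair, 183 and 158 in the Flt3-ITD pair, and 161 and 170 in the combined pair (log2 fold change -0.35 ± 0.0931 SE, limma adjusted p = 0.0276). Atp5o, the stalk protein that confers sensitivity to oligomycin, was at 99.5 and 99.3, 88.8 and 109, 64.5 and 72.8, and 63.5 and 52.3 (-0.65 ± 0.114, adjusted p = 0.00657). Carriers and other libraries did not overlap for either gene. Atp5d, a subunit of the rotor, had -0.40 ± 0.0889 (adjusted p = 0.0145), and Cox7b, which is X-linked, -0.43 ± 0.121 (adjusted p = 0.0327). Without combined replicate 2, 45 members and 22.5% of all genes fell, 20.8% of all genes rose, and the members' median was -0.41. Without combined replicate 1, 17 members and 11.6% of all genes fell, 9.5% of all genes rose, and the median was -0.18.

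Between the combined group and control, which share the Xist pattern, 8 members fell and none rose, 10.4% of those tested, where 6.38% of all genes fell and 5.41% rose. These were Ndufa10, Ndufb4, Ndufb8 and Ndufs7 of complex I, Uqcr11, Cox6b2, and Atp5g1 and Atp5o of complex V. Log2 fold changes ran from -0.64 ± 0.142 (SE) for Ndufb8 to -1.94 ± 0.428 for Cox6b2 (limma adjusted p = 0.03 and 0.0292), and Ndufs7 had -1.03 ± 0.178 (adjusted p = 0.0138). Ndufb4, a membrane arm subunit, was at 81.7 and 77.0 FPKM in controls and 35.0 and 49.8 in the combined group, below Smc3 del/+ (73.0 and 75.2) and both Flt3-ITD libraries (76.3 and 54.7). The median over members was -0.21, where all genes had -0.01. This comparison shares its controls with that of Flt3-ITD. It also rests on a pair of unlike replicates: without combined replicate 2, 37 members fell, the median was -0.47, and 15.9% of all genes fell and 15.7% rose. Without combined replicate 1, 13 fell, 15 rose and the median was 0.025, where 15.9% of all genes fell and 12.8% rose.

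**Figure D3:**
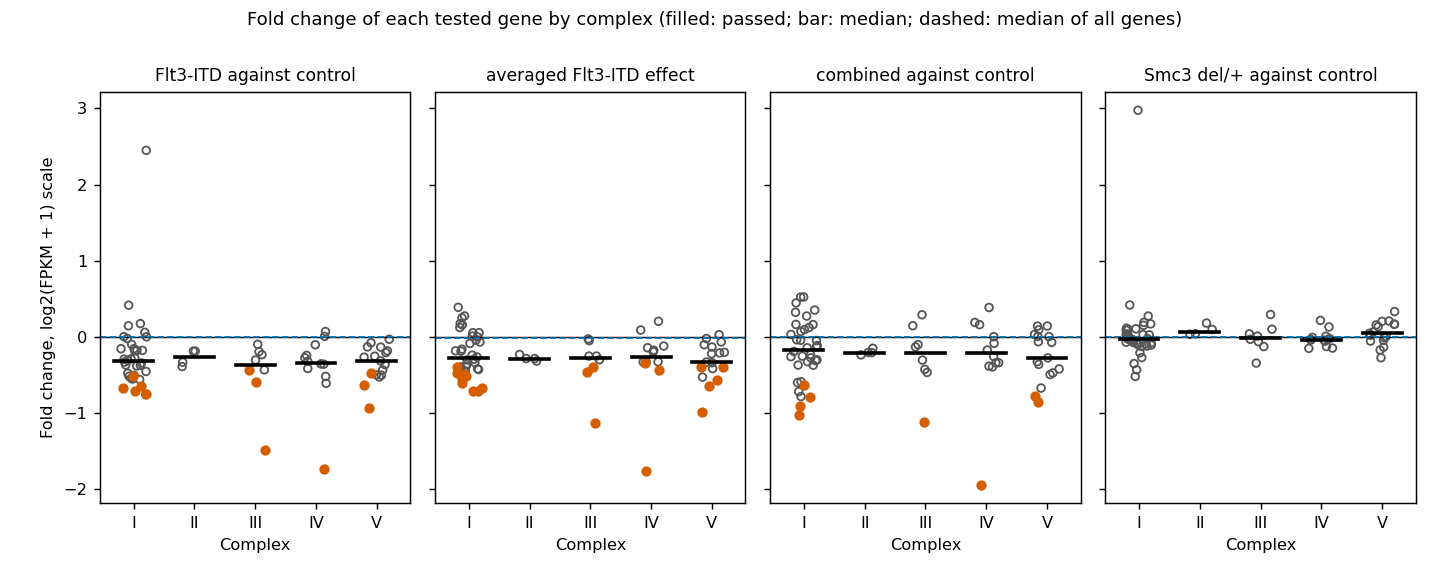
Log2 fold change of each tested member on the log2(FPKM + 1) scale, by complex, in 4 comparisons; filled points passed the limma threshold, black bars are medians of a complex, and the dashed line is the median of all genes tested. Medians lie below the dashed line in each complex in the first 3 panels and near it in Smc3 del/+ against control; the high open point in the first and last panels is Ndufs5.

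With all libraries, no member passed in a comparison by Smc3. In Smc3 del/+ against control no member was called by limma, as against 0% of all genes higher and 0.00921% lower, and 1 member had an unadjusted p under 0.05. The median was -0.01, with 37 means higher and 40 lower. That member was Ndufs5, an accessory subunit of complex I, with irregular levels of 0.01 and 1.93 FPKM in the control pair, 11.2 and 14.0 in the Smc3 del/+ pair, 14.5 and 4.71 in the Flt3-ITD pair, and 3.76 and 0.01 in the combined pair (adjusted p = 0.764). The effect of the Smc3 deletion averaged over Flt3 states called 0 members and 0% of all genes. Here 3 members and 525 of all genes had an unadjusted p under 0.05, and the members' median was 0.06. Without combined replicate 1 or replicate 2 this averaged effect again called 0 members, and its median was 0.13 or -0.06. The interaction, which follows the Xist pattern, called 0 members, with 0.0184% of all genes higher and 0.0184% lower. It gave 5 members and 1009 of all genes an unadjusted p under 0.05. Without combined replicate 1 the interaction was positive in 18 members and negative in 2, with 9.08% and 9.67% of all genes, and without combined replicate 2 it was negative in 1, with 0.765% positive and 0.138% negative over all genes. These tests share a spread that includes the combined pair, and a p above the threshold does not show equal levels.

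Whether loss of Smc3 changes these genes in cells with Flt3-ITD turned on which combined library was used. With both, no member was called between the combined group and Flt3-ITD, where 0.24% of all genes were higher and 0.0461% lower. By limma, 8 of 77 members and 1196 of 10854 genes had an unadjusted p under 0.05, and the members' median was 0.12. Without combined replicate 1, 27 members were higher and 2 lower, the median was 0.35, and 14.4% of all genes were higher and 15.5% lower. Without combined replicate 2, 1 was lower, the median was -0.18, and 0.857% of all genes were higher and 0.166% lower. In both cases the lone library was assumed to vary like those of the other groups.

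The difference between the combined replicates varied with transcript length. Replicate 2 was above replicate 1 in 61 of 77 members, by at least 1.5 times in 33. Ndufb6 was at 11.4 and 46.0 FPKM, Ndufc1 at 8.52 and 48.0 and Cox5a, a complex IV subunit, at 93.7 and 290. Members are short: their longest annotated coding transcripts have a median of 908 bases, against 3065 for all genes tested. Among members under 700 bases the median difference was 0.63, and it was 0.52, 0.32 and 0.22 in the next classes, which end below 1000, 2000 and 4000 bases, while other genes had 0.26, 0.29, 0.11 and -0.003 in these classes. The 2 members of 4000 bases or more, Atp5g1 and Ndufb2, had 0.57, where other genes had -0.15, and the longest annotated transcript need not be the one expressed.

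The members' lower level in Flt3-ITD also varied with length, in another way. Among the 24 members under 700 bases the median log2 fold change of Flt3-ITD against control was -0.19, and other genes of that length had -0.26. In the next classes members had -0.36, -0.31 and -0.48, while other genes had -0.18, -0.09 and -0.004. Short members were thus no lower than other short genes, and longer members were lower than other genes of their length. By level, members had medians from -0.25 to -0.42 in 5 classes of mean FPKM, and other genes from -0.20 to 0.08.

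**Figure D4:**
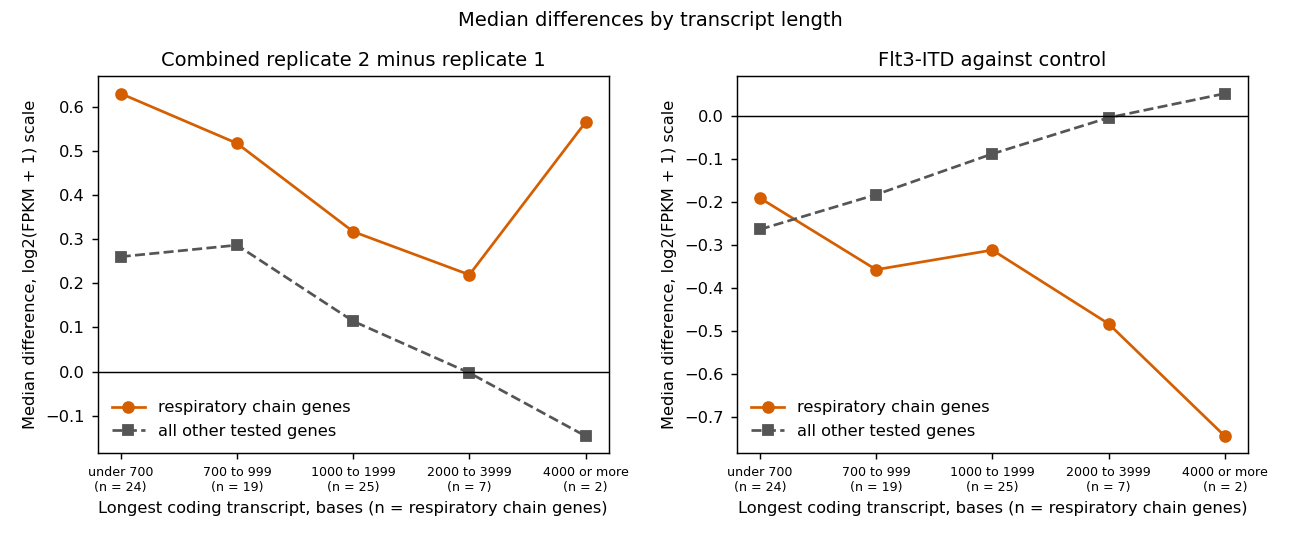
Median differences on the log2(FPKM + 1) scale in 5 classes of longest coding transcript, for members (solid) and all other tested genes (dashed); left, combined replicate 2 minus replicate 1, right, Flt3-ITD against control. On the left the members' line falls up to the class that ends below 4000 bases, and the line of other genes falls from the second class on; on the right the lines meet in the shortest class and part in the longer ones. The longest class holds 2 members.

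Counts of calls depended on the scaling, and values relative to all genes did so less. The authors' normalized table put the median of all genes at -0.58 in Flt3-ITD against control, and scaling every library to the same total without spike-ins and small RNA genes put it at -0.32. On these scales 57 and 45 members fell, and no member rose, while 43.1% and 21.9% of all genes fell and 0.986% and 2.17% rose. The members' median less that of all genes was -0.29 in the normalized table and -0.35 in the rescaled values, against -0.32 as deposited. All 12 genes that fell as deposited fell on both other scales. In the combined group against control 59 and 25 members fell, with 53.4% and 14.5% of all genes, while 1.11% and 1.86% of all genes rose. For the averaged Flt3-ITD effect these were 58 and 51 members, with 44.1% and 28% of all genes lower and 2.04% and 3.82% higher. With only the groups compared in the fit, 27 members fell and 1, Ndufs5, rose in Flt3-ITD against control (16.9% and 16.3% of all genes), and none passed in the combined group against control (0.221% lower and 0.157% higher).

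**Figure D5:**
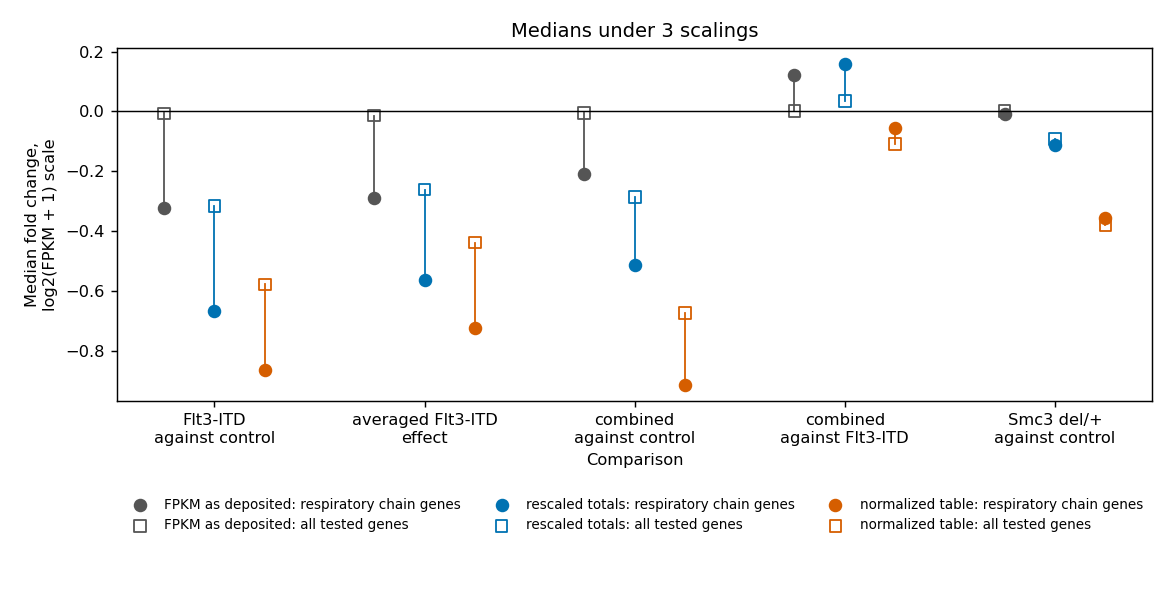
Median log2 fold change of tested members (filled) and of all tested genes (open) in 5 comparisons, for FPKM as deposited, rescaled totals and the authors' normalized table. Both move down together in the comparisons with control, and the members stay 0.2 or more below all genes in the first 3 comparisons; in combined against Flt3-ITD the members are above all genes on every scale, at 0.12, 0.16 and -0.056.

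The summed FPKM of all 84 members made up 1.53% and 1.51% of mouse FPKM without small RNA genes in controls and 1.42% and 1.48% in Smc3 del/+. The share was 0.925% and 0.980% in the Flt3-ITD pair, and 0.952% and 1.30% in the combined pair. By this share the carriers of Flt3-ITD were below the other libraries, with combined replicate 2 nearest to them. The sums themselves were 7715 and 7287 FPKM in the control pair and 7506 and 7898 in the Smc3 del/+ pair. They were 6251 and 5750 in the Flt3-ITD pair and 5347 and 8674 in the combined pair, where replicate 2 was highest of all libraries. A share of a total also depends on how much of it other transcripts take. The neutrophil transcripts S100a8, S100a9 and Ngp took 15.4% and 14.6% of the same total in the control pair. They took 18.4% and 17.5% in the Smc3 del/+ pair, 30.1% and 24.2% in the Flt3-ITD pair, and 22.1% and 23.0% in the combined pair. Their part in the lower share of the members was not tested.

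Levels of cell type markers in the c-Kit fraction differed between some of the groups. No marker passed in Smc3 del/+ against control, where 0% of all genes rose and 0.00921% fell. In Flt3-ITD against control, 9.5% of all genes fell and 8.51% rose. The 12 erythroid markers summed to 1581 to 1653 FPKM in controls, 1449 to 1570 in Smc3 del/+, 40.8 to 137 in Flt3-ITD and 157 to 515 in the combined group, where Alas2 was listed at 0 in both libraries. Car1 alone made up most of each sum, and 10 of 11 tested erythroid markers fell in Flt3-ITD against control. All 6 megakaryocyte markers fell in Flt3-ITD; their sums were 188 to 194 FPKM in controls, 65.4 to 73.3 in Smc3 del/+, 16.2 to 21.4 in Flt3-ITD and 15.3 to 57.8 in the combined group. Granulocyte markers summed to 83944 to 91176 in controls, 109963 to 113519 in Smc3 del/+, 166855 to 234523 in Flt3-ITD and 147344 to 178059 in the combined group, with 3 of 11 higher in Flt3-ITD. S100a8, S100a9 and Ngp made up most of each sum. Group means of Mpo, Elane, Prtn3 and Ctsg were 2669, 1288, 300 and 331 FPKM in controls. In Flt3-ITD they were 3753, 1769, 357 and 365. Monocyte and dendritic cell markers summed to 137 to 167 in controls, 129 to 151 in Smc3 del/+, 293 to 306 in Flt3-ITD, with 2 of 6 higher, and 790 to 1390 in the combined group. Cd74 alone made up most of the combined sums, at 1036 and 542 FPKM, against 128 and 55.7 in the Flt3-ITD pair. Mast cell and basophil markers summed to 68.3 to 71.8 in controls, 107 to 110.5 in Smc3 del/+, 35.7 to 38.3 in Flt3-ITD, with 2 of 4 lower, and 47.4 to 55.7 in the combined group. The 3 T cell markers, at sums of 0 to 3.73 over all libraries, were too low to be tested. Stem and progenitor markers summed to 135 to 137 in controls, 113 to 121 in Smc3 del/+, 120 to 162 in Flt3-ITD, with 1 of 5 tested lower, and 144 to 148 in the combined group, and Kit was at 60.1 and 54.9 in controls and 48.1 and 57.6 in Flt3-ITD. The part of these cell types in the lower level of respiratory chain genes was not tested.

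Cox4i2, Cox6a2 and Cox7a1, tissue isoforms of complex IV subunits, were close to 0, below the mean of 1 FPKM needed for a test. Cox6a2, known from heart and skeletal muscle, was at 0.631 and 0.761 FPKM in the control pair and 0.869 and 0.835 in the Smc3 del/+ pair, and was listed at 0 in all 4 Flt3-ITD carriers. Cox4i2, known from lung and low oxygen, was listed at 0 for each control and had 0.214 and 0.449 in the Smc3 del/+ pair, 2.09 and 1.11 in the Flt3-ITD pair, and 1.1 and 0 in the combined pair. Cox7a1, the muscle isoform of Cox7a2, was above 0 in Smc3 del/+ replicate 2 alone, at 0.667. Their common partners were abundant: Cox6a1 and Cox4i1 had means of 191 and 167 FPKM, and Cox7a2 and Cox8a of 84.6 and 100.3.

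Among isoform pairs at measurable levels, Cox6b2 took 16.2% and 19.2% of the sum of Cox6b1 and Cox6b2 in the control pair, 18.3% and 14.9% in the Smc3 del/+ pair, 7.52% and 6.55% in the Flt3-ITD pair, and 4.34% and 8.95% in the combined pair. The carriers did not overlap the others: 6.84% ± 1.93 against 17.2% ± 1.98 (SD, n = 4 each; two-sided exact permutation test p = 0.0286, the smallest that 70 regroupings can give, and adjusted p = 0.0571 over 2 shares). Cox6b1 had 216 and 170 FPKM in controls and 166 and 141 in Flt3-ITD. Atp5g1 took 13.6% and 14.5% of the sum of the 3 subunit c genes in the control pair, 16.1% and 15.3% in the Smc3 del/+ pair, 8.75% and 10.5% in the Flt3-ITD pair, and 14.0% and 5.31% in the combined pair. Here combined replicate 1 lay among the others (9.63% ± 3.61 against 14.9% ± 1.08, exact permutation p = 0.0571, adjusted p = 0.0571). Cox6b2 and Atp5g1 had already been called lower in the averaged Flt3-ITD effect in these same libraries. Neither share test is independent of those calls, so neither adds support to them. In combined replicate 2, Atp5g3 was at 206 FPKM, against 67.9 to 134 in the other libraries.

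Genes that work with the respiratory chain were counted in lists in Flt3-ITD against control, where 9.5% of all genes fell and 8.51% rose. No list was tested against these shares. Of 6 further subunits and carriers found in the table by a list from textbook knowledge, 1 fell: Atpif1, the inhibitor of ATP synthase, went from 436 and 376 FPKM to 178 and 156 (log2 fold change -1.27 ± 0.25 SE, limma adjusted p = 0.0154). That list also held Cyc1, cytochrome c1, at -0.49 (adjusted p = 0.169); Cyc1 fell in the combined group against control, by 1.09 on the log2 scale, and in the averaged effect, by 0.77 (limma adjusted p = 0.0227 and 0.0172). Of 40 assembly factors 3 fell and none rose, with a median of -0.30: Ndufaf4 (-0.93) and Ndufaf2 (-0.89), which assist complex I, and Coa5 (-0.53), which assists complex IV. The citric acid cycle list had 2 of 13 lower and none higher, Suclg2, of succinyl-CoA ligase, at -1.17 and Idh3a, of isocitrate dehydrogenase, at -1.02, with a median of -0.31. Among 13 tested regulators of these genes and of mitochondrial DNA, 2 fell and none rose. Pprc1, a coactivator of the PGC-1 family, was at 26.9 and 30.2 FPKM in controls and 12 and 14.4 in Flt3-ITD (-1.06 ± 0.162, adjusted p = 0.0066), and Lrpprc, which stabilizes mitochondrial mRNA, had -0.62 (adjusted p = 0.0261). The transcription factors Nrf1, Gabpa and Yy1 had -0.07, 0.15 and 0.17, with adjusted p of 0.803, 0.505 and 0.398. In the averaged Flt3-ITD effect, where 12.8% of all genes fell, these lists had 3 of 6, 7 of 40, 5 of 13 and 4 of 13 lower and none higher; no difference between the lists and the members was tested.

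Many members share sequence with other genes, such as processed copies or overlapping neighbours, which can take or give reads. For Ndufb6, 36.1% was shared with Smim27, whose exons overlap its own on the opposite strand. In GENCODE vM21 transcripts, 35 of 84 members shared over 10% of their 31-base words with other genes, and 4 shared over 50%: Atp5h, Atp5l, Ndufs3 and Uqcrb. None of these 4 passed in any comparison of the deposited FPKM with all libraries, though each did on another scale or with a combined library left out, and their values are uncertain. Among genes that fell, the share was 48.0% for Atp5o, 38.3% for Ndufb4, 30% for Ndufa12, 25.5% for Ndufb9 and 19.5% for Uqcr11, and it was 0 for Cox6b2, Ndufs7 and Atp5a1. Exons of Atp5o overlap those of Donson, and exons of Ndufb8 those of Gm20538, on the same strand, while Atp5a1 overlaps Haus1 on the opposite strand. The labels do not say whether counting used strand, so reads of such pairs may not be told apart.

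Promoters are shown for 4 of the genes that fell with Flt3-ITD, because they carry motifs of factors known to drive respiratory chain genes. The sequences are those of RefSeq on GRCm38.p6, from 250 bases before to 50 after the annotated start, 5′ to 3′ on the gene's strand, with motif matches in capitals. The letters searched on both strands were CCGGAAG, the core bound by ETS factors such as GABP, GCGCATGCG for NRF1 and AANATGGCG for YY1. Uqcr11 (chr10:80406772-80407071, minus strand) has the ETS core at -66 and the NRF1 motif at -5 from the start. Cox6a1 (chr5:115348909-115349208, minus strand) has overlapping NRF1 matches on both strands at -162 and -161 and the ETS core at -16. Uqcrc1 (chr9:108936398-108936697, plus strand) has overlapping NRF1 matches at 31 and 32, and Ndufs7 (chr10:80249199-80249498, plus strand) the YY1 motif at 25, after the start.
Uqcr11: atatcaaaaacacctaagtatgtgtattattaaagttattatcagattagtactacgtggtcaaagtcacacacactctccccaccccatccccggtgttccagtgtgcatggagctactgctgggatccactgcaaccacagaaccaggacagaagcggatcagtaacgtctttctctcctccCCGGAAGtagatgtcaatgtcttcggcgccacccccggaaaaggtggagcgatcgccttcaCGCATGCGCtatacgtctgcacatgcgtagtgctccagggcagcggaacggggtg
Cox6a1: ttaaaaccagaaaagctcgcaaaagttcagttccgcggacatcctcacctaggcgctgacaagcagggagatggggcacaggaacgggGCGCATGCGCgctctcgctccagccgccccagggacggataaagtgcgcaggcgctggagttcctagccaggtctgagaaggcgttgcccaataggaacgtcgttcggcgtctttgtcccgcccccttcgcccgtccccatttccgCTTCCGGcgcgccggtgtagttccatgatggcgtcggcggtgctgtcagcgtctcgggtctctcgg
Uqcrc1: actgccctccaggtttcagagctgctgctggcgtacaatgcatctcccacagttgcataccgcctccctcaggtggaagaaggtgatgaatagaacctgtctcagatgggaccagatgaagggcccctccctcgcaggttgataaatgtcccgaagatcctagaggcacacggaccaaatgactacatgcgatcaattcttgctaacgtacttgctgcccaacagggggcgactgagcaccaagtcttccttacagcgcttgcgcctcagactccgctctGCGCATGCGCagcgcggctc
Ndufs7: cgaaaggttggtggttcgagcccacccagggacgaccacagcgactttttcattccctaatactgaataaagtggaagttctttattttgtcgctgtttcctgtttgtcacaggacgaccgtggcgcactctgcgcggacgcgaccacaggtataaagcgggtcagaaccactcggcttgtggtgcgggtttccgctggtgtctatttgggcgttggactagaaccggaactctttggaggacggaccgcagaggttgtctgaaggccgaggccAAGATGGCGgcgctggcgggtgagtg

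A promoter was found for 69 of 84 members (82.1%) and for 8746 genes tested. The NRF1 motif was in 11.6% of the members' promoters, against 4.36% of those of all genes tested, and the YY1 motif in 15.9% against 6.68%. The ETS core was in 23.2% of the members' promoters and 21.98% of those of genes tested. Of the 19 members with a promoter that fell in the averaged Flt3-ITD effect, 3 (15.8%) held each motif. Of the 47 other tested members, 27.7% held the ETS core, 10.6% the NRF1 motif and 17.02% the YY1 motif. These are matches of letters in a window and are given as a description.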

How the data were processed

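Bone marrow cells selected for c-Kit gave 8 RNA libraries, each from its own mouse, in 4 groups of 2; per the labels' protocols, Trizol was used for the RNA and a directional kit for the libraries. The authors deposited FPKM values in 2 tables of 23385 rows, 92 of them spike-ins. The submitters' processing notes name mm9, TopHat and Cufflinks 2.0.0 without their roles; annotation, use of strand and the method behind the second, normalized table are not stated there. The main results came from the other table. Depth in reads is unknown, and steps of low values gave only an uncertain relative depth.

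Values were tested as log2(FPKM + 1), which understates changes of low genes, with limma 3.58.1 in R 4.3.3 and a variance trend, on the 10854 genes, spike-ins apart, that averaged 1 FPKM or more over all libraries. Calls had a Benjamini-Hochberg adjusted p-value under 0.05. Single comparisons and the interaction came from 4 group means (4 residual degrees of freedom), averaged effects from an additive model (5 residual degrees of freedom). The fit was tested on simulated data.

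The members, lists and named genes were chosen with earlier results of these data known. Named are, per comparison and complex, all members past the threshold where there are 5 or fewer and otherwise the 5 of smallest p, the 2 highest and the lowest above 0 per complex, isoforms with their partners, the Atp5g genes, and up to 4 per list; Ndufs5, Ndufb6, Ndufc1 and Cox5a were named after their values were seen. Transcript lengths and shared 31-base words come from GENCODE vM21, promoters from RefSeq on GRCm38.p6, and genes were matched by symbol, since the files' build differs. Alternatives were the normalized table, a pseudocount of 0.1, no filter on low values, rescaled totals, only the groups compared, the replicate number as a block, and leaving out each library. One list of markers of another cell type is not reported here.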

Additional observations from a re-analysis of the deposited data

How the results depend on the processing

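The pseudocount of 0.1 and the absence of a filter on low values left every count of members within 1.5 times its value, and the pseudocount lost no call. Without the filter, Flt3-ITD against control lost Cox6b2, Ndufs7, Ndufv1 and Uqcrh (8 of 12 kept) and gained Atp5d as lower. The combined group against control lost Cox6b2, Ndufb4 and Uqcr11 (5 of 8 kept) and gained Uqcrc1 as lower. The averaged Flt3-ITD effect lost Ndufa5, Ndufa9 and Ndufb4 (17 of 20 kept). Cox6a2, listed at 0 in all carriers, passed as lower in each of these 3 comparisons. Over the 16161 genes then tested, 6.01%, 4.29% and 8.3% fell in the same order, and 4.1%, 3.02% and 5.98% rose. On the authors' normalized scale, members fell in those 3 comparisons in numbers of 57, 59 and 58, with medians of -0.86, -0.91 and -0.72. There the medians were -0.36 for Smc3 del/+ against control, -0.056 for the combined group against Flt3-ITD, 0.27 for the interaction and -0.19 for the averaged Smc3 effect, where all genes had -0.38, -0.11, 0.27 and -0.24. With rescaled totals 45, 25 and 51 members fell, with medians of -0.67, -0.51 and -0.56. With only the groups compared, 27 fell and 1 rose in Flt3-ITD against control, and 0 fell in the combined group against control. In the limma fit of all groups, 19 members and 3106 of 10854 genes had an unadjusted p under 0.05 in that last comparison. The cause of this difference between fits was not tested.

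Leaving out 1 library at a time, the number of members lower ranged from 0 to 32 in Flt3-ITD against control (higher, 0 to 1), from 0 to 37 in the combined group against control (higher, 0 to 15; median -0.47 to 0.025) and from 9 to 45 in the averaged Flt3-ITD effect. No member passed in the combined group against control without either control library. The averaged count was 9 without control replicate 1 or Smc3 del/+ replicate 2, 11 without control replicate 2 and 12 without Flt3-ITD replicate 2. For the combined group against Flt3-ITD, 0 to 27 were higher and 0 to 2 lower, with medians of -0.18 to 0.35. For the interaction, 0 to 18 were higher and 0 to 2 lower, with medians of -0.16 to 0.39. In comparisons that include the combined group, the widest medians came from leaving out 1 of its libraries. The share of all genes called lower changed in the same direction as the members' count. This held in Flt3-ITD against control, the combined group against control and the averaged Flt3-ITD effect.

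The replicate numbers did not pair the libraries: deviations of same-numbered libraries correlated at -0.113 to 0.0229 over 6 pairs of groups. With the replicate block, 8 members fell in Flt3-ITD against control, without Atp5a1, Ndufb9, Uqcrc1 and Uqcrh. In the combined group against control 6 fell, and in the averaged Flt3-ITD effect 17. In the same order, 8.28%, 5.18% and 11.5% of all genes fell, and 7.51%, 4.15% and 9.8% rose. With 2 libraries a group and unknown depth, small differences, such as those by Smc3, may have been missed.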
